A study of Elaeis guineensis with 10 samples.

Results

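Described here, palm by palm, are 200 genes whose transcript levels differed widely among the leaves of 10 clonal oil palms (Elaeis guineensis). They were the most variable of the genes kept by the limits given below. Mantled fruit were borne by 5 of the palms and normal fruit by the other 5, and all 10 are clonal plants of 1 ortet. Leaf RNA labelled frond 0 was sequenced as stranded mRNA libraries, 1 library per palm, and no treatment, age, sampling date or hour is given in the labels. Mantled replicates 1 to 5 are palms 673, 687, 754, 765 and 770, and normal replicates 1 to 5 are palms 753, 758, 764, 767 and 768, numbered in accession order.

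A gene is represented here by a stem, which is the sum of all counting units whose IDs share everything but their last number. Whether a stem is 1 whole gene is not given in the sources used here. The tables hold 26087 stems. A filter on low counts left 18030, and 13834 of these averaged at least 5 CPM (read counts scaled to the size of each library), had fewer than 15 units and were not among the 100 most abundant. The 200 variable stems, 1.45% of the 13834, were selected on the standard deviation (SD) of log2 CPM over all 10 palms, highest first, with fruit phenotype ignored. Since this spread chose them, every value of it below is a description and carries no test. The last stem inside had an SD of 1.790 and the first outside 1.789, so the boundary is not a natural break.

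Palms cloned through tissue culture start from the genome of their ortet, although culture is known to leave somaclonal changes, among them altered DNA methylation. Mantling is the best known of these: the male organs of the flower turn carpel-like, a change linked to loss of methylation at a retrotransposon inside a floral homeotic gene. Frond 0 is the young frond next in line to open. In leaves generally, transcripts that vary between plants of 1 genotype often belong to responses to the surroundings or to development, while those for basic cell functions are steadier. Which roles the variable stems have is not known here. The tables pair no ID with a gene name or coordinates, and 0 of the 26087 stems could be found among RefSeq names for assembly EG11, so the leaf label could not be set against marker genes. The IDs are therefore kept as the files give them, and only 4 are printed.

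Each palm had 10236532 to 12544294 assigned reads. The variable stems were abundantly read in some palms and scarcely in others. Their mean level ran from 5.01 to 989 CPM with a median of 40.8, against a median of 27.4 CPM over the 13834 stems. The SD of log2 CPM ran from 1.79 to 3.61 with a median of 2.11, against a median of 0.50. The highest palm exceeded the lowest by a median of 5.78 log2 units, where the median over the 13834 stems was 1.53. In 68 of the 200 the lowest palm had at most 10 reads while the highest had at least 100, which was true of 174 of the 13834 (1.26%). A palm without any read occurred in 7 of the 200 (3.5%), and in 7 of the 13834 (0.05%). Log2 CPM uses a prior count of 2, which holds down differences at such low counts. In whole leaf RNA, fewer cells of a type and less RNA per cell cannot be told apart.

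The palms fell on 2 sides, and the sides cut across fruit phenotype. For each stem the 10 log2 CPM values were sorted and the largest gap between neighbours was found. In 58 variable stems the palms above that gap were exactly mantled 1, 3 and 5 and normal 1 and 4. In 43 others they were exactly the remaining palms, mantled 2 and 4 and normal 2, 3 and 5. The same division of 10 palms into 5 and 5 thus described 101 of the 200 stems (50.5%), against 1048 of the 13834 (7.58%). The 2 shares are a description only: the division was found in these 200 stems, and choosing by SD favours 5 palms against 5. Normal 5 alone lay above the gap in 24 stems (12%), where the share over all 13834 was 7.44%. The other 75 stems were scattered over 31 patterns.

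**Figure D1:**
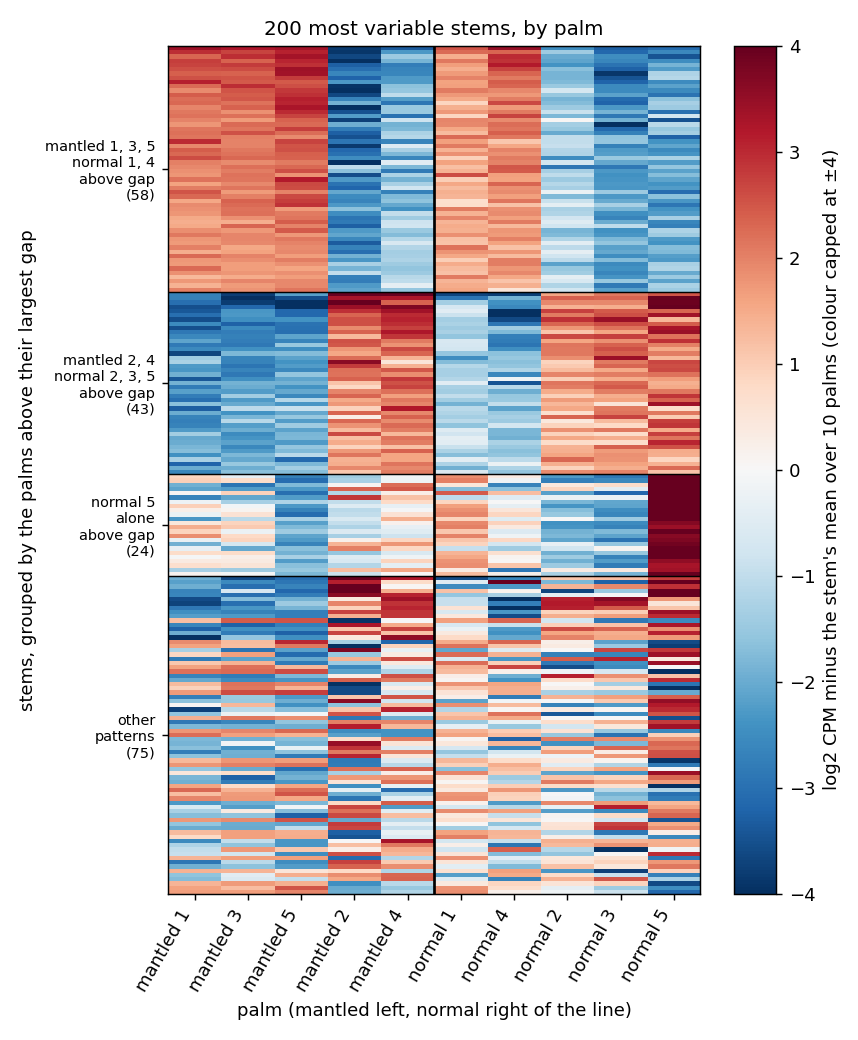
Heat map of the 200 variable stems (rows) in the 10 palms (columns, mantled left and normal right). Colour is log2 CPM minus the stem's mean over the palms; the upper blocks of 58 and 43 stems are mirror images, the block of 24 stems is high in normal 5 alone, and 75 stems show other patterns.

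Among the 58 stems high in mantled 1, 3 and 5 and normal 1 and 4, the levels were high. Their median was 163 CPM in mantled 1, 4.30 in mantled 2, 150 in mantled 3, 11.4 in mantled 4 and 220 in mantled 5. In normal palms it was 93.6 CPM in normal 1, 15.3 in normal 2, 6.92 in normal 3, 134 in normal 4 and 6.15 in normal 5. The highest and the lowest median were both in mantled palms. That the phenotypes overlapped follows from the palms that define the block. The largest gap had a median of 2.50 log2 units and reached 5.01, and it was at least 4-fold in 46 of the 58. None of these stems was without reads in any palm. The median count was 46 in a stem's lowest palm and 2818.5 in its highest.

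The clearest of them was the stem ranked 4 by SD, which has 2 units. It had 701, 4.60, 639, 6.46 and 683 CPM in mantled 1 to 5, and 388, 11.8, 6.79, 756 and 7.85 CPM in normal 1 to 5. Every high value was at least 388 CPM and every low value at most 11.8, a gap of 5.01 log2 units with both phenotypes on both sides. Its reads ran from 54 to 8981 per palm.

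Together the 58 stems took 1.55% of assigned reads in mantled 1, 0.0689% in mantled 2, 1.67% in mantled 3, 0.135% in mantled 4 and 2.02% in mantled 5. In normal 1 to 5 they took 1.04%, 0.168%, 0.0856%, 1.495% and 0.0715%. Shares were above 1% in the 5 palms that define the high side of the block and below 0.2% in the other 5. Both phenotypes are on each side by that definition.

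The 43 stems with the opposite pattern were less abundant. Their median was 1.46, 32.9, 1.57, 42.3 and 1.87 CPM in mantled 1 to 5, and 2.96, 26.0, 32.2, 2.27 and 45.3 CPM in normal 1 to 5. By the definition of the blocks, the high palms of this one were the low palms of the other. The mix of phenotypes on each side follows from it too. The gap had a median of 2.20 log2 units and was at least 4-fold in 24 of the 43. The lowest palm had a median of 12 reads, and 4 of the 43 had a palm without reads.

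**Figure D2:**
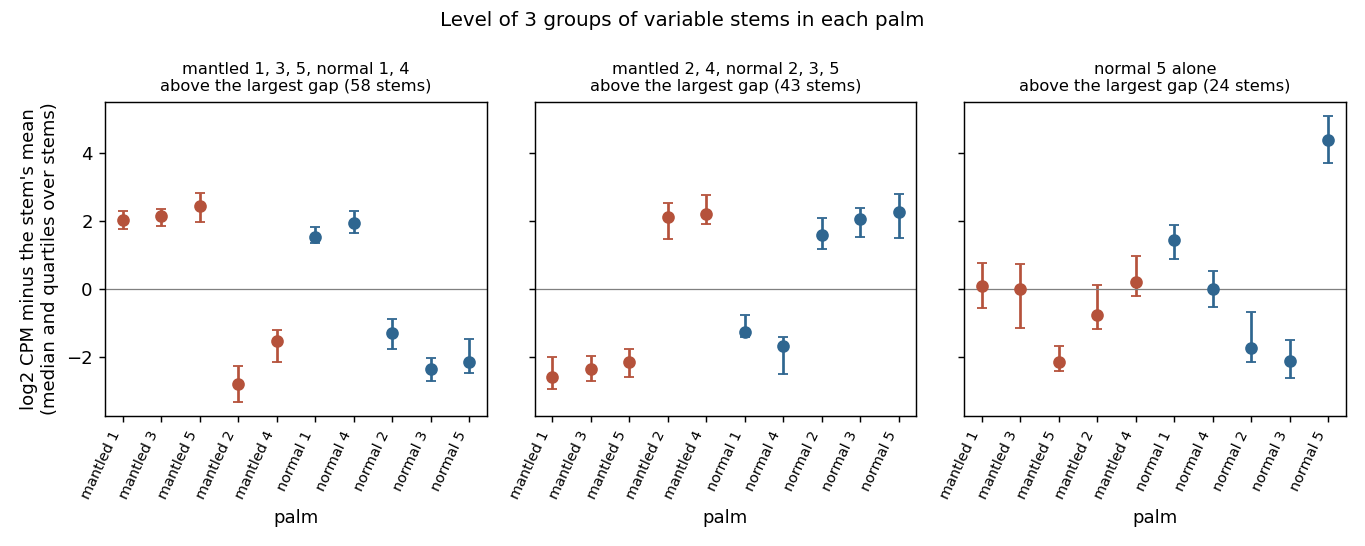
Level of the 3 main groups of variable stems in each palm, mantled in red on the left and normal in blue on the right of each panel, as the median (point) and quartiles (bars) over stems of log2 CPM minus the stem's mean. Mantled 1, 3 and 5 and normal 1 and 4 lie between 1.53 and 2.45 in the first panel and between -2.59 and -1.26 in the second, and normal 5 reaches 4.38 in the third.

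The palms of a side were not equally far out. Among the 58 stems, normal 1 was the palm just above the gap in 38 and normal 2 the palm just below it in 31. Among the 43, normal 1 lay just below the gap in 27 and normal 2 just above it in 18. Normal 1 and normal 2 were thus most often the innermost palm of their side. Mantled 5 was the highest palm in 34 of the 58 and mantled 2 the lowest in 34. In 17 further stems normal 1 changed sides and lay above the gap with mantled 2 and 4 and normal 2, 3 and 5. There its median was 8.99 CPM, between 1.74 to 2.27 CPM in the 4 palms below the gap and 27.4 to 44.1 CPM in the other 5 above it.

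The most variable stem of all, maker-p5_sc02390-augustus-gene-0.14, lies on scaffold 2390 and has 1 unit. It had 0.549, 253, 0.166, 81.4 and 0.858 CPM in mantled 1 to 5, and 0.191, 13.9, 19.8, 0.168 and 26.8 CPM in normal 1 to 5. The 5 low palms had 2 to 11 reads and the others 158 to 2977, with mantled 2 the highest and normal 2 the lowest of the high palms. Mantled palms averaged 67.3 ± 109.8 CPM, normal palms 12.2 ± 11.9 (SD, n = 5 each). The difference fitted between phenotypes was 2.47 ± 1.71 (log2, standard error). Without mantled 2 it was 0.76, and with palms 753 to 770 alone 1.17.

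The stem ranked 2, p5_sc00035_cds_286 on scaffold 35, had 2.65, 183, 0.497, 175 and 1.40 CPM in mantled 1 to 5. In normal 1 to 5 it had 2.29, 96.9, 93.3, 4.80 and 443 CPM. The same 5 palms were high, with no value between 4.80 and 93.3 CPM. The mean was 72.4 ± 97.1 CPM in mantled palms, against 128 ± 182 in normal ones (SD, n = 5 each), and the fitted log2 difference -0.82 ± 1.56 (standard error). It was -1.51 without mantled 2, -1.46 without mantled 4 and 0.52 without normal 5.

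The stem ranked 3, p5_sc00198_cds_12 on scaffold 198, sums 4 units. It had 0.366, 179, 0, 19.1 and 0.0780 CPM in mantled 1 to 5, and 0, 4.30, 4.76, 0.168 and 14.1 CPM in normal 1 to 5. Mantled 2 stood alone above its largest gap, and the next 4 palms in order were the other high palms of the previous stems. Mantled 3 and normal 1 had no read, which allows levels up to 0.248 and 0.286 CPM (3 reads, counting error only). Mantled palms averaged 39.7 ± 78.4 CPM, against 4.67 ± 5.73 in normal ones (SD, n = 5 each), and the fitted log2 difference was 3.10 ± 1.83 (standard error). Without mantled 2 this difference was 0.07, and with palms 753 to 770 alone 0.46.

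The fourth stem, maker-p5_sc00001-augustus-gene-113.60 on scaffold 1, ranked 5. It had 0.274, 100.1, 0.0828, 18.4 and 0 CPM in mantled 1 to 5, and 1.24, 13.4, 13.5, 0.505 and 54.5 CPM in normal 1 to 5. The high palms were once more mantled 2 and 4 and normal 2, 3 and 5. Its direction between phenotypes depended on the scale: the mean of log2 CPM was lower in mantled palms, while the fitted log2 difference, which follows the mean count, was 0.52 ± 1.60 (standard error) and turned to -1.82 without mantled 2. Mantled palms averaged 23.8 ± 43.4 CPM, normal palms 16.6 ± 22.1 CPM (SD, n = 5 each).

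**Figure D3:**
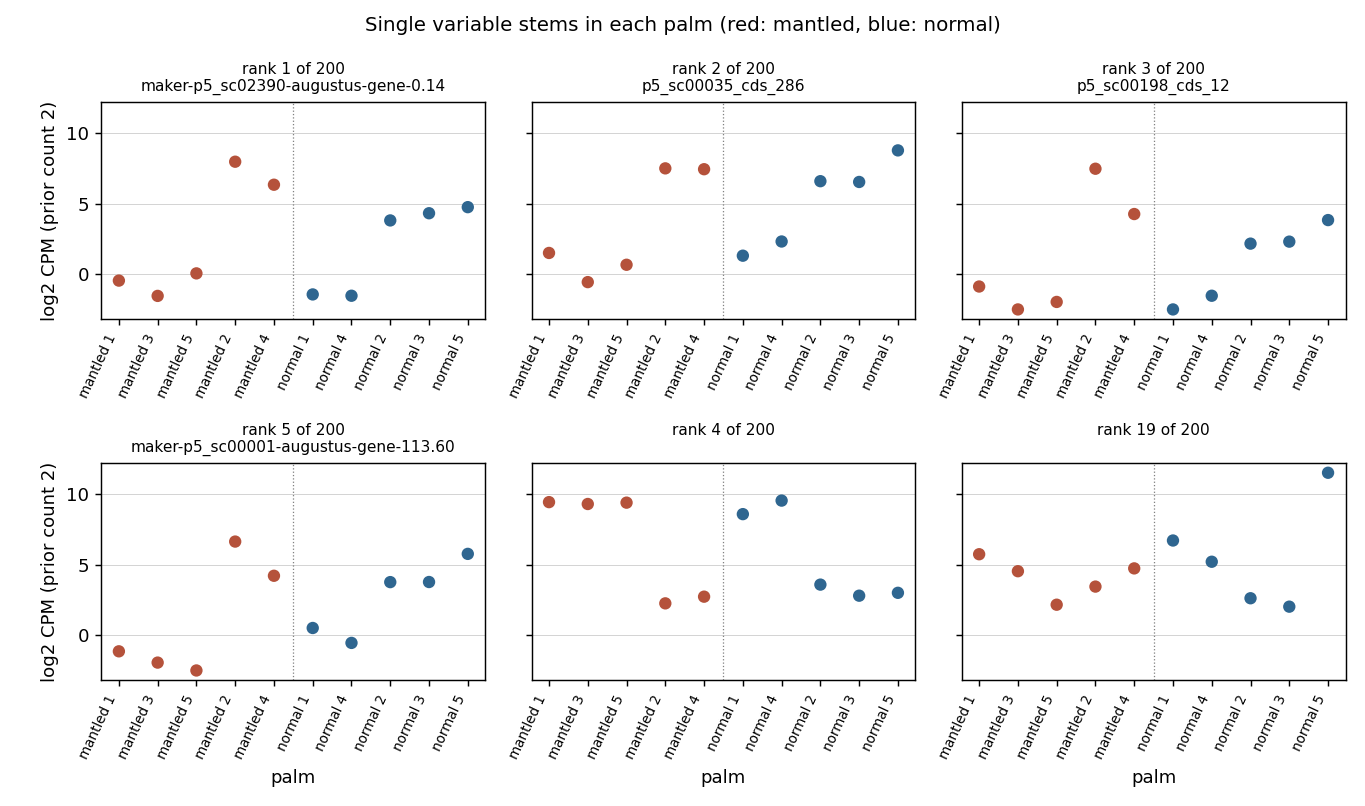
Log2 CPM (prior count 2) of 6 variable stems in each palm, mantled in red left of the dotted line and normal in blue right of it. Ranks 1, 2 and 5 are high in mantled 2 and 4 and normal 2, 3 and 5, rank 3 is highest in mantled 2, rank 4 is high in the other 5 palms, and rank 19 stands out in normal 5 with 2979 CPM.

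Of the ranks 6 to 10, those ranked 6, 8 and 10 had the same 5 high palms as ranks 1, 2 and 5. The stem ranked 6 had 0.0914, 32.1, 0.166, 40.3 and 0 CPM in mantled 1 to 5, and 1.72, 7.72, 8.11, 0.337 and 48.4 CPM in normal 1 to 5. The stem ranked 8 had 1.10 to 137 CPM in mantled palms and 0.421 to 88.2 CPM in normal palms. The stem ranked 10 reached 282 reads in mantled 4 and 279 in normal 5 and had none in normal 4. Of the 10 most variable stems, 6 thus shared 1 set of high palms. The stem ranked 9 resembled rank 3, with 143 CPM in mantled 2 and at most 15.6 CPM in any other palm. Rank 7 followed neither side: it had 20.9 CPM in mantled 2, 54.6 in normal 4 and 69.5 in normal 5, and at most 4.04 CPM in the other palms.

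Normal 5 contributed most of the large single-palm differences. A single palm lay at least 4-fold above every other palm in 20 variable stems, and that palm was normal 5 in 18 and mantled 2 in 2. Over the 13834 stems 86 showed this, 82 of them in normal 5. In 4 variable stems (2%) a single palm lay at least 4-fold below all others, against 22 of the 13834 (0.16%). Normal 5 was the highest palm in 58 of the 200 stems (29%), followed by mantled 5 with 45 (22.5%), while normal 2 was highest in 3 (1.5%). Mantled 5 was highest in 7.77% of the 13834 stems and normal 2 in 4.56%. Mantled 2 was most often the lowest palm, in 42, followed by normal 3 in 33. Over the 13834 stems normal 5 was also the most frequent extreme, highest in 20.5% and lowest in 19.2%. This library had a scaling (TMM) factor of 0.754, where the other 9 had 0.959 to 1.11. Its part in the single-palm counts was not tested. Under 2 other scalings the 24 stems high in normal 5 alone stayed 24. A scaling moves all stems of a palm nearly alike, and the smallest gap among the 24 was 1.42 log2 units. The unchanged count is therefore not a test of that part. When the 200 stems were chosen by median absolute deviation in place of SD, 8 were high in normal 5 alone and 8 had a single palm at least 4-fold above the rest.

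The 24 stems high in normal 5 alone had a median of 32.4, 28.0, 26.7, 32.9 and 5.85 CPM in mantled 1 to 5. In normal 1 to 5 the median was 71.1, 12.0, 9.39, 31.2 and 664 CPM. Normal 5 was far above, and among the other palms normal 1 was the highest and mantled 5 the lowest. These stems took 0.0384% to 0.262% of assigned reads in mantled palms, 0.0402% to 0.513% in normal 1 to 4 and 3.0% in normal 5. The most heavily read of them, ranked 59, had 65513 reads in normal 5 (0.523% of its library), against 350 to 2247 in mantled palms and 354 to 6432 in the other normal palms. The stem ranked 19 had 53.6, 10.7, 23.1, 26.6 and 4.29 CPM in mantled 1 to 5, and 106, 5.97, 3.88, 36.9 and 2979 CPM in normal 1 to 5. Apart from normal 5 its mantled and normal values overlapped.

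The first principal component of the 200 stems held 75.1% of their variance and the second 14.6%. On the first, 106 stems loaded one way and 94 the other. Scores were -28.6, 32.6, -28.7, 23.7 and -30.0 in mantled 1 to 5, and -15.7, 15.6, 24.2, -24.0 and 30.8 in normal 1 to 5. No palm lay between -15.7 and 15.6, and each side of that interval held palms of both phenotypes. On the second component normal 5 lay at 24.8 and normal 2 and 3 at -14.6 and -16.7. The 13634 stems outside the set gave first-component scores of -53.9, 67.1, -58.0, 37.5 and -57.8 in mantled 1 to 5, and -30.5, 13.9, 31.5, -36.8 and 87.1 in normal 1 to 5, with 52.1% of their variance. Each palm had the same sign in both, where the sign was set to make normal 5 positive. Stems were not scaled, so those of widest spread weigh most in both components, and the boundary between the sets is not a natural break. Among the 13634 stems, 6.95% had the 5 and 5 division. The matching signs are therefore a description only.

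**Figure D4:**
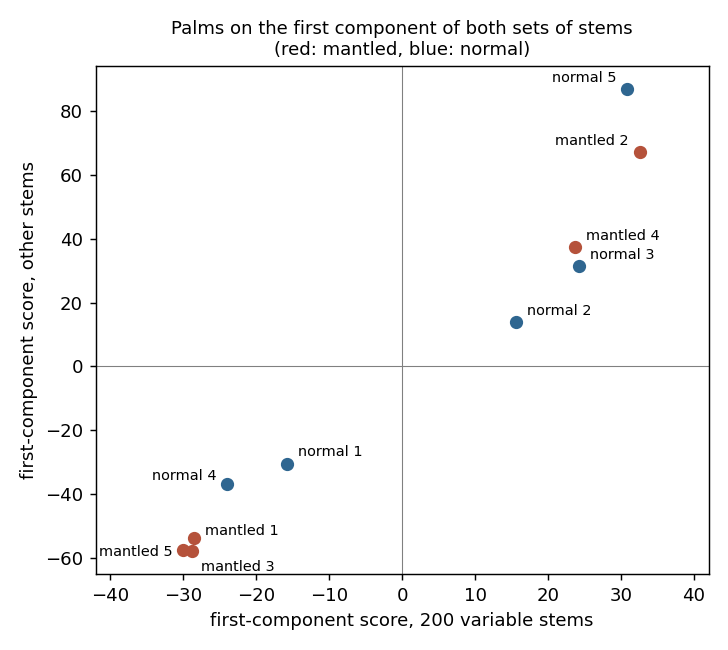
First-component score of each palm from the 200 variable stems (horizontal) and from the 13634 other stems (vertical), in arbitrary units of log2 CPM; mantled palms are red and normal palms blue. Mantled 1, 3 and 5 and normal 1 and 4 lie at or below -15.7 on the horizontal axis and the other palms at or above 15.6, and the signs match on the vertical axis.

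The share of stems with the division was lower in each band below the set. It described 50.5% of the stems ranked 1 to 200 by SD, 36.5% of the next 200, 22.8% of ranks 401 to 800 and 17.8% of ranks 801 to 1600. Beyond rank 6400 it described 2.13%. The share with normal 5 alone above the gap moved less, from 12.0% in the first band to 5.97% in the last. These shares are a description only: the bands are ranks of the SD that chose the stems, and for the same gap 5 palms against 5 give a larger SD than 1 palm against 9.

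**Figure D5:**
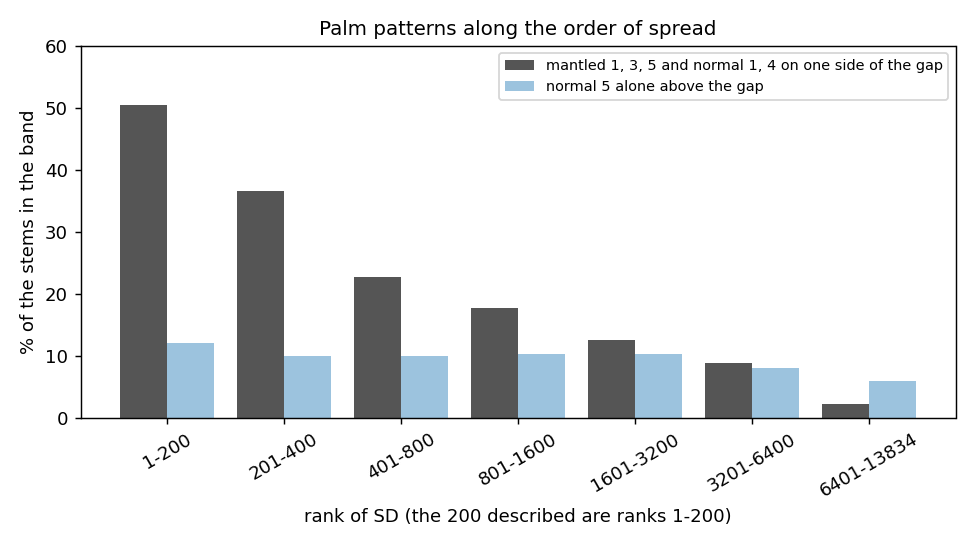
Share of stems (%) in bands of decreasing SD of log2 CPM in which the largest gap separates mantled 1, 3 and 5 and normal 1 and 4 from the other palms (dark bars), or sets normal 5 alone above the rest (light bars). The dark bars fall from 50.5% to 2.13% and the light bars from 12.0% to 5.97%.

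Neither assigned reads nor the share of reads without a unique alignment followed the division. Assigned reads were 11002698, 10746817, 12043560, 12544294 and 11964708 in mantled 1 to 5, and 10926993, 10851333, 10236532, 11636297 and 12522062 in normal 1 to 5. The highest and the lowest total both belonged to palms of 1 side. Reads without a unique alignment were 4.25%, 5.72%, 2.78%, 3.44% and 3.17% of those listed in mantled 1 to 5, and 4.97%, 3.36%, 2.98%, 2.79% and 4.78% in normal 1 to 5. Palm numbers were mixed too, with mantled palms 673, 754 and 770 and normal palms 753 and 767 on 1 side, and mantled palms 687 and 765 and normal palms 758, 764 and 768 on the other. RNA quality values, sampling hour and position in the field are not in the labels, so their part in the division was not tested.

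Units of the same stem mostly varied together. In 75 variable stems at least 2 units passed the filter, 207 units in all. The median Pearson r between units of a stem over the 10 palms was 0.965, and it exceeded 0.9 in 70 of the 75 stems. Over the 6183 such stems among the 13834 the median was 0.645, and 802 exceeded 0.9. Units of a stem share their libraries, and a stem chosen for a wide spread tends to have a high r between its units. These values therefore describe how evenly a stem behaved and carry no test. The largest gap fell between the same palms as in the sum for 155 of the 207 units (74.9%). The sum is made of these units, so part of that agreement is built in. Most variable stems nevertheless rested on a single unit, 105 of 200 (52.5%), close to 48.6% of the 13834. MAKER-style IDs, the form of the stem ranked 1, made up 59 of 200 (29.5%) and 38.8% of the 13834.

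Variable stems occurred near each other by ID number. The 200 lay on 122 scaffolds, 80 of them alone on theirs. Of the 8471 numbered stems considered, 173 lay within 5 ID numbers of a variable stem on the same scaffold, and 19 of those 173 were variable stems themselves, against 1.66% of all 8471. These 19 formed 11 pairs on 9 scaffolds, and in 8 pairs both stems had the same palms above the gap. The median r within pairs was 0.968 over 10 palms, and the lowest -0.256. On scaffold 181 all 4 variable stems, of 26 considered there, were high in mantled 1, 3 and 5 and normal 1 and 4. On scaffold 128 the stems ranked 28, 38 and 55 shared that pattern, while the stem ranked 76 was high in normal 5 alone. Whether consecutive numbers mark neighbouring genes, parts of 1 gene or copies that share reads is not given in the sources used here, so such pairs may not be independent measurements.

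Fruit phenotype, which the rule ignored, was tested next, since mantled and normal palms are the groups the study compared. No variable stem passed. Among 18030 stems tested with edgeR's quasi-likelihood test, 0 of the 200 passed an adjusted p of 0.05 (Benjamini-Hochberg over all stems), and the background was 0%. The lowest adjusted p was 1 after rounding. DESeq2 and limma-voom likewise called 0 of the 200. At an unadjusted p under 0.05 there were 11 variable stems (5.5%), against 0.749% of all stems, all 11 lower in mantled palms, with log2 differences from -4.73 to -2.52. In each of the 11 normal 5 alone lay above the largest gap. Without normal 5 none of the 200 reached an unadjusted p under 0.05, where 101 of 18222 stems did, and the log2 differences of the 11 became -1.14 to 0.07. The count was 3 without mantled 5 (55 of 18184 stems) and 7 without mantled 1 (67 of 18274) or mantled 3 (61 of 18193). It was 9 without normal 1 (179 of 18249) and 13 without mantled 4 (591 of 18206). Leaving out normal 2 (129 of 18250) or normal 3 (233 of 18228) gave 15. It rose to 16 without mantled 2 (587 of 18209) or normal 4 (326 of 18200). At that level DESeq2, run without the filter on low counts, gave 8 of the 200 (257 of 23126 stems). Limma-voom with palm weights gave 148 (4683 of 18030 stems). Its weights were lowest for mantled 2 (0.26), normal 5 (0.32) and mantled 4 (0.44), and highest for normal 2 (3.19).

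In none of the 200 stems (0) did mantled and normal values stand apart without overlap, against 0.0887% of all 18030. Differences of at least 2-fold were fitted in 64 of the 200 and in 1.86% of all stems; a stem chosen for its spread tends to have a large difference between any groups, so nothing is read from that count. The standard error of the log2 difference had a median of 1.06 among the variable stems and 0.32 among the 13834. Phenotype accounted for a median of 5.28% of the variance of a variable stem, and 3.80% over the 13834. All 58 stems of the first block had a higher mean log2 CPM in mantled palms, a direction that the pattern itself favours, since 3 mantled and 2 normal palms lie on its high side.

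The smallest p-values among stems lower in mantled palms belonged to ranks 19 and 56, in both of which normal 5 alone lay above the gap. The stem ranked 56 had 1.46, 0.766, 0.580, 3.07 and 0.624 CPM in mantled 1 to 5, and 3.25, 0.351, 0.265, 1.68 and 121 CPM in normal 1 to 5. The difference fitted for it was -4.26 ± 1.55 (log2, standard error). Among stems higher in mantled palms, the one ranked 167 had 74.7, 5.36, 84.2, 10.6 and 130.1 CPM in mantled 1 to 5, and 35.7, 23.3, 13, 31.9 and 1.91 CPM in normal 1 to 5. The fitted log2 difference was 1.52 ± 0.85 (standard error), and neither it nor the next passed even unadjusted. The next, ranked 83, ranged over 1.62 to 47.9 CPM in mantled palms, against 0.212 to 18.6 in normal ones. In these 2 stems normal 5 alone lay below the gap, and the groups overlapped.

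The variable stems also varied widely within each phenotype. The SD of log2 CPM had a median of 2.31 within the 5 mantled palms and 2.08 within the 5 normal palms, against 0.49 and 0.50 over the 13834 stems. It was larger within the mantled palms in 144 of the 200 (72.0%), where the share over the 13834 was 50.2%. The 200 stems are not independent, since their first component held 75.1% of their variance. Normal 1 and normal 2 were most often the innermost palm of their side, and their part in this count was not tested. The count therefore describes these palms only, and whether mantled palms vary more than normal palms was not tested.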

How the data were processed

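RNA of 10 palms was counted in 1 table each. The deposited values are raw read counts per counting unit, without normalisation. HTSeq 0.6.1p1 (counting), TopHat2 2.0.13 (alignment), Trim Galore 0.4.0 and FastQC 0.11.3 appear, with no settings, per the submitters' processing notes. Sources used here give no genome build, strand setting or overlap mode, so reads of overlapping or near-identical models could be split. Unassigned classes (56.4% to 59.3% of listed reads) were left out. Between 10236532 and 12544294 reads per palm were assigned, without molecular identifiers, so counts measure reads. No 2 libraries agreed within sampling noise (lowest chi-square over degrees of freedom 21.5 over 45 pairs).

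Counts were summed per stem (numbered IDs without the last number, MAKER-style IDs without the transcript suffix), filtered with filterByExpr, scaled by TMM and tested in edgeR 4.0.16 (R 4.3.3; robust glmQLFit and glmQLFTest, two-sided, Benjamini-Hochberg over 18030 stems), on all 10 palms without covariates. Each standard error of a log2 difference is that difference, without its sign, divided by the square root of the test's F statistic. The code was tested on simulated data. Alternatives used DESeq2 1.42.0, limma 3.58.1, other scalings, filters, prior counts and palms. The printed IDs are 4, the 2 of highest SD with higher and the 2 with lower mean log2 CPM in mantled palms; other stems go by rank. The stems, lists and tests were chosen with earlier results of these data known, and the largest-gap and ID-number descriptions after the values were seen.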

Additional observations from a re-analysis of the deposited data

Results flagged for a closer look

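For each phenotype, the 5 values of the stems described singly, of both components, of the medians of the 3 main groups of stems and of the read share were examined for 1 outlying palm, 40 sets in all. There was 1 such palm in the 40 sets, no more than the rate of about 1 in 20 sets that chance gives. The flag rests on the gap to the next palm as a share of the range, and does not list every lone palm. Normal 5 in the stem ranked 19, for example, was not flagged. On the second component of the variable stems mantled 5 scored -9.98, where the other mantled palms lay between -1.07 and 2.05. Its gap was 0.741 of the range.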

How the results depend on the processing

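No stem passed an adjusted p of 0.05 in any of 17 alternatives, all 200 variable stems included (0 to 0 with a palm left out). The lowest adjusted p was 0.120, in limma-voom. Limma-voom gave mantled 1 to 5 weights of 1.99, 0.26, 2.43, 0.44 and 2.59, and normal 1 to 5 weights of 0.91, 3.19, 1.10, 0.68 and 0.32. Unadjusted counts moved. Over all stems, 135 of 18030 became 278 of 23255 without the filter, 257 of 23126 in DESeq2 (also without the filter), 4683 in limma-voom, 389 of 32285 single units, 318 with palms 753 to 770 alone, and 55 to 591 with 1 palm left out (without mantled 5 and mantled 4). For variable stems, 11 became 148 in limma-voom, 6 with palms 753 to 770 alone, and 0 to 16 with 1 palm left out. The low counts were 0 without normal 5, 3 without mantled 5 and 7 without mantled 1 or mantled 3. The highest, 16, came without mantled 2 or normal 4. The cause was not tested. Directions of named stems reversed in limma-voom for maker-p5_sc02390-augustus-gene-0.14 (-2.74), p5_sc00198_cds_12 (-3.13) and maker-p5_sc00001-augustus-gene-113.60 (-5.33), whose log2 difference was also -1.82 without mantled 2 (up to 1.70 without normal 5) and -1.42 with palms 753 to 770 alone; p5_sc00035_cds_286 was -4.50 in limma-voom and ran from -1.51 without mantled 2 to 0.52 without normal 5. Of the 200, 165 were chosen again at a mean of 1 CPM or more, and 131 at a mean of 20 CPM or more. With many-unit and abundant stems kept in, 192 were chosen again. With 1 palm left out 160 to 189 were, lowest without normal 5. The 5 and 5 division described 98 to 123 stems with 1 palm left out (101 without normal 5) and stayed within 1.5 times 101 under each scaling and prior count tried. Chosen by median absolute deviation, 120 stems had that division and 8, in place of 24, were high in normal 5 alone. Single-palm highs went from 20 to 6 (without normal 5) or up to 25. Single-palm lows went from 4 to 8 with a prior count of 0.5, and to 4 to 12 with 1 palm left out (10 without mantled 2, 12 without normal 5). The first component held 72.8% to 80.9% with 1 palm left out. The gap alternatives were chosen after seeing the data. No paired analysis was possible because no number in the labels links a mantled palm to a normal one.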
